A study of Mus musculus with 8 samples.

Results

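The mitochondrial carriers (genes of the Slc25a family) and the genes of mitochondrial protein import (genes named Timm and Tomm) were examined in sorted kidney cells of the mouse. Members were the rows of the deposited count table whose symbol begins with Slc25a, Timm or Tomm and a number, with at least 10 counts in at least 4 libraries. Of 73 symbols that match, 66 were kept among 25240 in the table: 42 carriers, 23 import genes and the antisense RNA Tomm6os, which is left out of both classes. The 7 symbols not kept were Slc25a2, Slc25a18, Slc25a31, Slc25a41, Slc25a54, Timm8a2 and Tomm20l. All 66 members also passed the filter on low counts that left 14284 genes for testing.

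All libraries came from kidneys of p16-tdTomato mice, in which feeding adenine had brought on chronic kidney disease (CKD), so the controls carry the reporter and the disease too. The genotype's name joins p16, a cell cycle inhibitor used as a mark of senescence, with the red fluorescent protein tdTomato. Tomato-negative cells (4 libraries) were compared with Tomato-positive cells (4 libraries), and the labels name every library's cells as proximal tubular epithelial cells. How the reporter was built, the animals' age, the time on the diet and whether animals were pooled were not given in the sources used here. Each of the identifiers CKD523_2, CKD523_3, CKD627_1 and CKD627_2 names 1 Tomato-negative and 1 Tomato-positive library, called a pair here. The meaning of the prefixes CKD523 and CKD627 is not given, nor is it stated that libraries came from separate animals, so a p-value reflects only how far these samples spread, which may be technical.

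Carriers are proteins of the inner mitochondrial membrane that exchange ADP for ATP, phosphate, carboxylates, amino acids, nucleotides and cofactors between the matrix and the cytosol. Nearly all mitochondrial proteins are made in the cytosol and enter through the TOM complex of the outer membrane. Proteins with a presequence then pass the TIM23 complex, while carriers themselves are escorted by the small TIM chaperones to the TIM22 complex, which inserts them into the inner membrane. The proximal tubule is dense with mitochondria, since it pays for reabsorption mostly with ATP from respiration.

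Total counts per library ranged from 13474439 to 19886202. The tdTomato transcript lay between 87.3 and 152 normalised CPM (CPM being counts scaled to the library total, here with TMM factors) in the Tomato-negative libraries and between 3227 and 4188 in the Tomato-positive ones. The labelled cell type was checked with marker lists. All 12 proximal tubule markers had counts in every library, with summed levels of 3659 to 21014 normalised CPM in Tomato-negative and 4094 to 11721 in Tomato-positive libraries, and 3 of the 12 fell in the paired comparison described below. The summed level of these 12 markers fell in both CKD523 pairs (19502 to 11721 and 21014 to 11496). In both CKD627 pairs it rose (3659 to 4094 and 5359 to 6092). Markers of other nephron segments were also present and moved with the Tomato group. All 8 markers of principal cells rose (summed level 231 to 2346 against 1055 to 5382). In contrast, 4 of 6 thick ascending limb markers (3994 to 14165 against 1696 to 6796), 4 of 7 intercalated cell markers (238 to 2350 against 175 to 837) and 3 of 6 distal tubule markers (955 to 1761 against 168 to 697) fell. None of the 7 endothelial, 5 tested fibroblast or 5 podocyte markers passed the test. Of 5 tested leukocyte markers 1 rose, and of the 3 not tested Cd3e had no count in any library. Summed levels were 122 to 557 against 49.0 to 665 for endothelium, 60.5 to 128 against 79.4 to 163 for fibroblasts, 172 to 589 against 61.9 to 448 for podocytes and 30.9 to 49.1 against 25.8 to 40.1 for leukocytes. The part of these markers in the results on carriers and import genes was not tested, and in bulk RNA fewer cells of a type and less RNA per cell cannot be told apart.

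Of the members that passed the test between Tomato groups, 3 are shown here with a stretch of sequence before their RefSeq start (build GRCm38.p6). Each stretch is part of the 250 bases before the RefSeq start, trimmed to bases outside the exons of any gene in GENCODE M21, except for 8 bases of Timm8b's stretch that were kept to hold the whole motif. It is given 5′ to 3′ on the strand of the gene, in lower case, with a match to a searched motif in capitals.
Slc25a5, chrX:36795347-36795596, plus strand: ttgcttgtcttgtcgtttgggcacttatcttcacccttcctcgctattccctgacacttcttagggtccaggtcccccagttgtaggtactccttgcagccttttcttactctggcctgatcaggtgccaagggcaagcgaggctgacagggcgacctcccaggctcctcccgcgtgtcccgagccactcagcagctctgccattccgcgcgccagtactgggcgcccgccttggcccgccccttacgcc
Slc25a17, chr15:81360813-81361015, minus strand: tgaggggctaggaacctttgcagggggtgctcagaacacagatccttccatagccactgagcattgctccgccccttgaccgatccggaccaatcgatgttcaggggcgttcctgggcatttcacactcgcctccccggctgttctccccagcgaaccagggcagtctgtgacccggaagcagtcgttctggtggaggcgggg
Timm8b, chr9:50603805-50603900, plus strand: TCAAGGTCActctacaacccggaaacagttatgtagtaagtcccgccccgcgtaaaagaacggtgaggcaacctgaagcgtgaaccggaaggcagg
The capitals in Timm8b mark TCAAGGTCA, the letters bound by oestrogen-related receptors (ERR), nuclear receptors known for driving mitochondrial genes. The match begins 96 bases before the start, and those 8 bases lie in the first exon of the neighbour Sdhd on the other strand. No match of the searched motifs was found in the stretches of Slc25a5 and Slc25a17. Slc25a11 and Slc25a39 also passed the test and have RefSeq entries, but their sequences are not printed. No match was found in the 250 bases before their starts. Tomm7, which passed too, matched no RefSeq entry.

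Promoters of 54 of the 66 members matched RefSeq entries, and 5 motifs were searched on both strands from 250 bases before to 50 bases after the start. The ERR letters were found in 1 of 20 import genes (5.0%), in 0 of 33 carriers and in 0.3% of 11273 tested genes with an entry. The letters CCGGAAGT of the ETS family, to which the mitochondrial regulator GABP belongs, were found in 25% of import genes, 3.0% of carriers and 8.5% of tested genes. In the 250 bases before the start these matches were in Timm23, Timm29, Tomm70a and, among carriers, Slc25a20. The NRF1 letters GCGCANGCG were found in 15% of import genes, 3.0% of carriers and 14.2% of tested genes. The YY1 letters AAGATGGCG were found in 5.0%, 3.0% and 3.3%, and the E-box CACGTG in 20%, 18.2% and 11.5%. The letters are a description of these windows, and no binding was measured.

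Tomato-positive and Tomato-negative libraries were first compared in the paired fit, with edgeR's quasi-likelihood test, the identifier as a block, and p-values adjusted over all 14284 tested genes. Among carriers, 4 of 42 fell in Tomato-positive libraries and 0 rose. Among import genes, 2 of 23 fell and 0 rose. Over all tested genes 3.81% fell and 3.82% rose, so the shares of carriers (9.52%) and import genes (8.70%) that fell rest on 4 and 2 genes. The carriers that fell were the ADP/ATP carrier Slc25a5, the peroxisomal cofactor carrier Slc25a17, the glutathione carrier Slc25a39 and the oxoglutarate carrier Slc25a11, and the import genes were the small TIM chaperone Timm8b and the TOM subunit Tomm7. In the fit without the block, no member passed the threshold in either direction, where 0.231% of all genes were lower and 0.364% higher.

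More members leaned lower than passed the test. At an unadjusted p under 0.05 in the paired fit, 11 carriers were lower and 2 higher, and 14 import genes were lower and 0 higher, beside 12.3% of all tested genes lower and 12.7% higher. Without the block those numbers were 10 and 2 for carriers and 13 and 0 for import genes, beside 8.98% and 8.86%. DESeq2 with the block called 8 carriers lower, 1 higher (Slc25a48), 6 import genes lower and 0 higher, beside 7.39% of all genes lower and 6.79% higher. Limma-voom called 4, 0, 3 and 0, beside 5.01% and 4.71%. The estimate lay below 0 in 31 of 42 carriers (73.8%), in 23 of 23 import genes and in 49.5% of all tested genes. The median log2 difference was -0.25 for carriers, -0.48 for import genes and 0.01 for all tested genes.

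**Figure D1:**
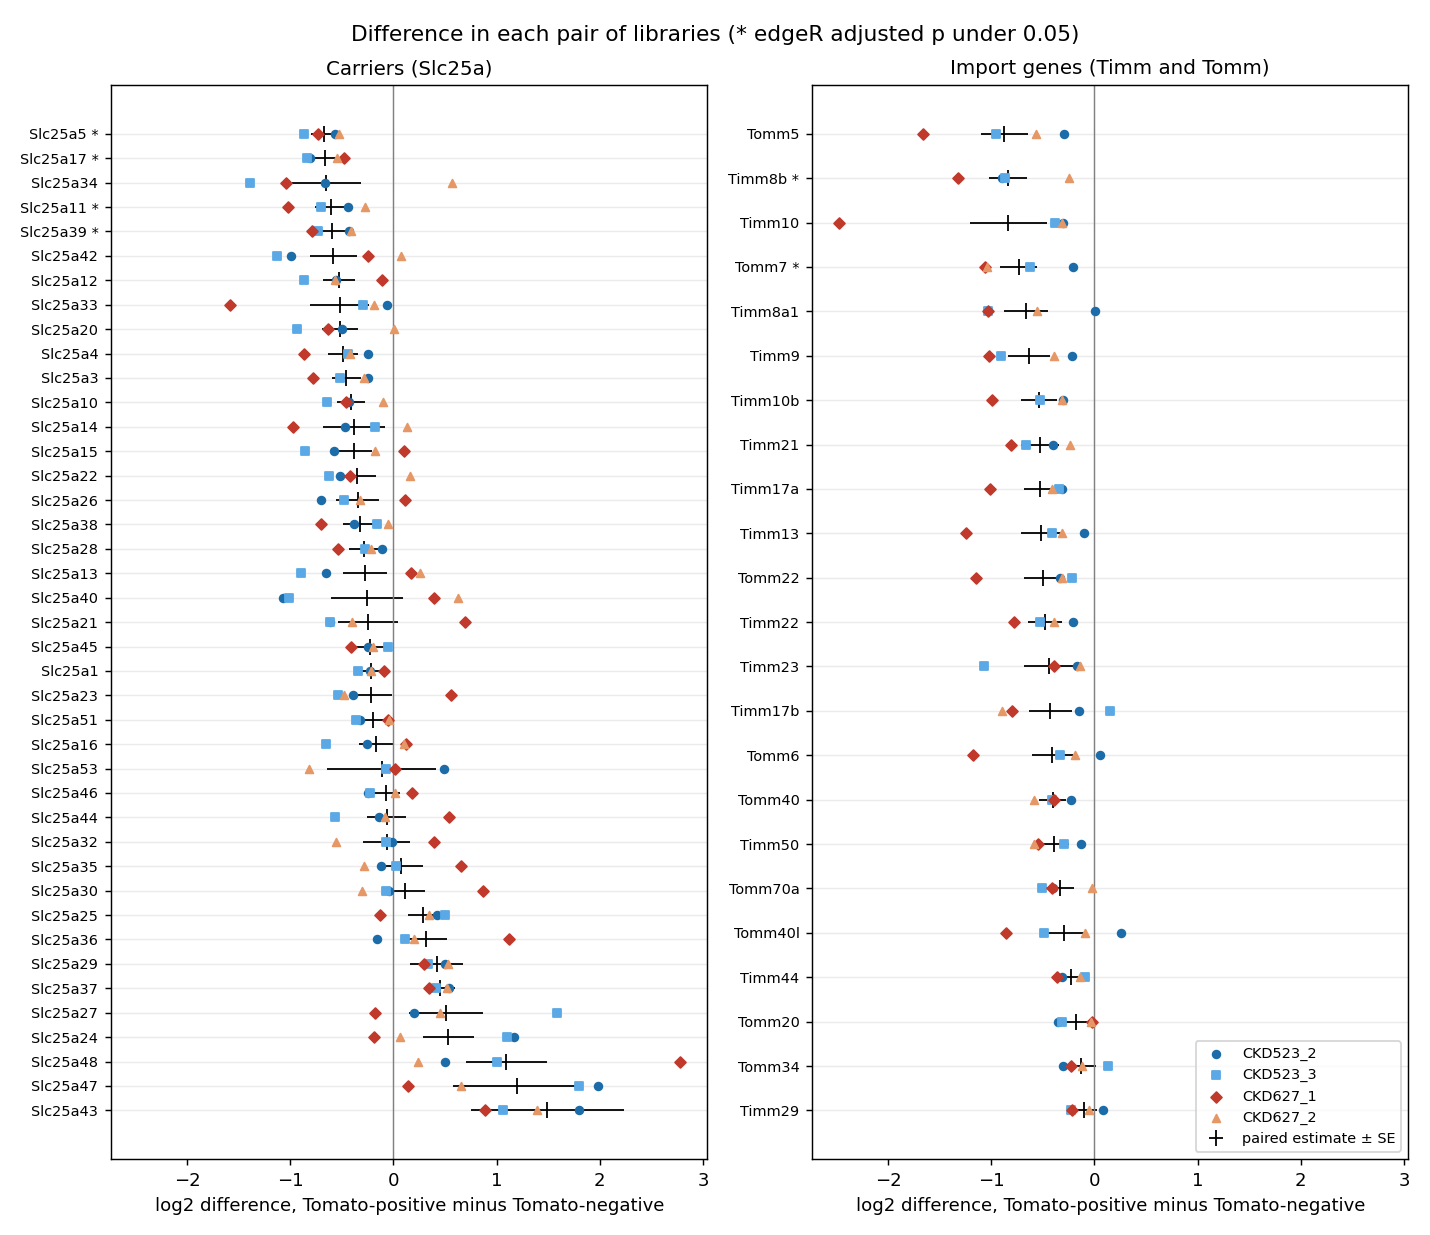
The horizontal axis is the log2 difference, Tomato-positive minus Tomato-negative, and each row is a member (1 carrier is not shown). Coloured symbols give the difference in each of the 4 pairs and black bars the paired estimate ± SE; asterisks mark the 4 carriers and 2 import genes with an edgeR adjusted p under 0.05. All 23 import estimates lie below 0, whereas 11 of 42 carrier estimates lie above it.

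Slc25a5 (ENSMUSG00000016319.3, chrX:36795651-36798807 in GRCm38, plus strand, 3 exon blocks) encodes an ADP/ATP carrier, which exports the ATP made in the matrix. Exon blocks are the exons of all transcripts of a gene, merged where they overlap. It stood at 686, 844, 943 and 775 normalised CPM in the Tomato-negative libraries of CKD523_2, CKD523_3, CKD627_1 and CKD627_2, and at 465, 464, 569 and 539 in the Tomato-positive ones. The groups did not overlap. The mean fell from 812 ± 108 to 509 ± 53.1 (SD, n = 4 each), a paired log2 difference of -0.67 ± 0.13 (SE; 95% interval -0.97 to -0.37; edgeR adjusted p = 0.0198). It had the highest level per kilobase of exon of all 66 members (401 normalised CPM per kilobase). Of its 50-base stretches, 33.8% also occur in other genes, 21.1% in Gm5560, so its count is uncertain where reads could go to either.

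Slc25a17 (ENSMUSG00000022404.8, chr15:81318911-81360812, minus strand, 12 exon blocks) belongs to the carrier family but sits in the peroxisome, where it carries coenzyme A and related cofactors. Its levels were 122, 131, 97.5 and 92.0 normalised CPM in Tomato-negative and 69.6, 73.0, 70.2 and 63.0 in Tomato-positive libraries. The groups did not overlap, and the Tomato-positive libraries lay within a narrow range. The paired log2 difference was -0.67 ± 0.13 (edgeR adjusted p = 0.0219).

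Slc25a39 (ENSMUSG00000018677.9, chr11:102402985-102407946, minus strand) brings glutathione, the main soluble antioxidant, into the matrix. Its levels were 475, 545, 383 and 328 normalised CPM in Tomato-negative and 352, 329, 221 and 247 in Tomato-positive libraries. Each pair was lower in the Tomato-positive library, while the groups overlapped because within each Tomato group both CKD627 libraries lay below the CKD523 ones. The paired log2 difference was -0.59 ± 0.13 (edgeR adjusted p = 0.0335; 0.204 without the block).

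Slc25a11 (ENSMUSG00000014606.14, chr11:70644196-70647479, minus strand) exchanges oxoglutarate for malate in the malate-aspartate shuttle. Its levels were 170, 183, 225 and 164 normalised CPM in Tomato-negative and 125, 113, 111 and 135 in Tomato-positive libraries, with no overlap. The paired log2 difference was -0.61 ± 0.15 (edgeR adjusted p = 0.0480). It overlaps Rnf167 on the other strand over 189 bases of exon, and whether counting used strand was not given in the sources used here.

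Timm8b (ENSMUSG00000039016.5, chr9:50603910-50605320, plus strand, 2 exon blocks) is one of the small chaperones of the space between the membranes. Its levels were 54.6, 63.6, 68.6 and 50.01 normalised CPM in Tomato-negative and 29.3, 34.9, 27.4 and 42.1 in Tomato-positive libraries, with no overlap. The mean fell from 59.2 ± 8.45 to 33.4 ± 6.60 (SD, n = 4 each), a paired log2 difference of -0.83 ± 0.19 (95% interval -1.26 to -0.41; edgeR adjusted p = 0.0311). It shares 81 bases of exon with Nkapd1 on the other strand.

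Tomm7 (ENSMUSG00000028998.6, chr5:23838944-23844161, minus strand, 3 exon blocks) is a small subunit of the TOM complex that also takes part in holding the kinase PINK1 at damaged mitochondria. Its levels were 45.7, 44.5, 66.2 and 44.5 normalised CPM in Tomato-negative and 39.7, 28.9, 31.7 and 21.6 in Tomato-positive libraries. The groups did not overlap, and the pair CKD523_2 differed least. The paired log2 difference was -0.73 ± 0.18 (edgeR adjusted p = 0.0423).

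**Figure D2:**
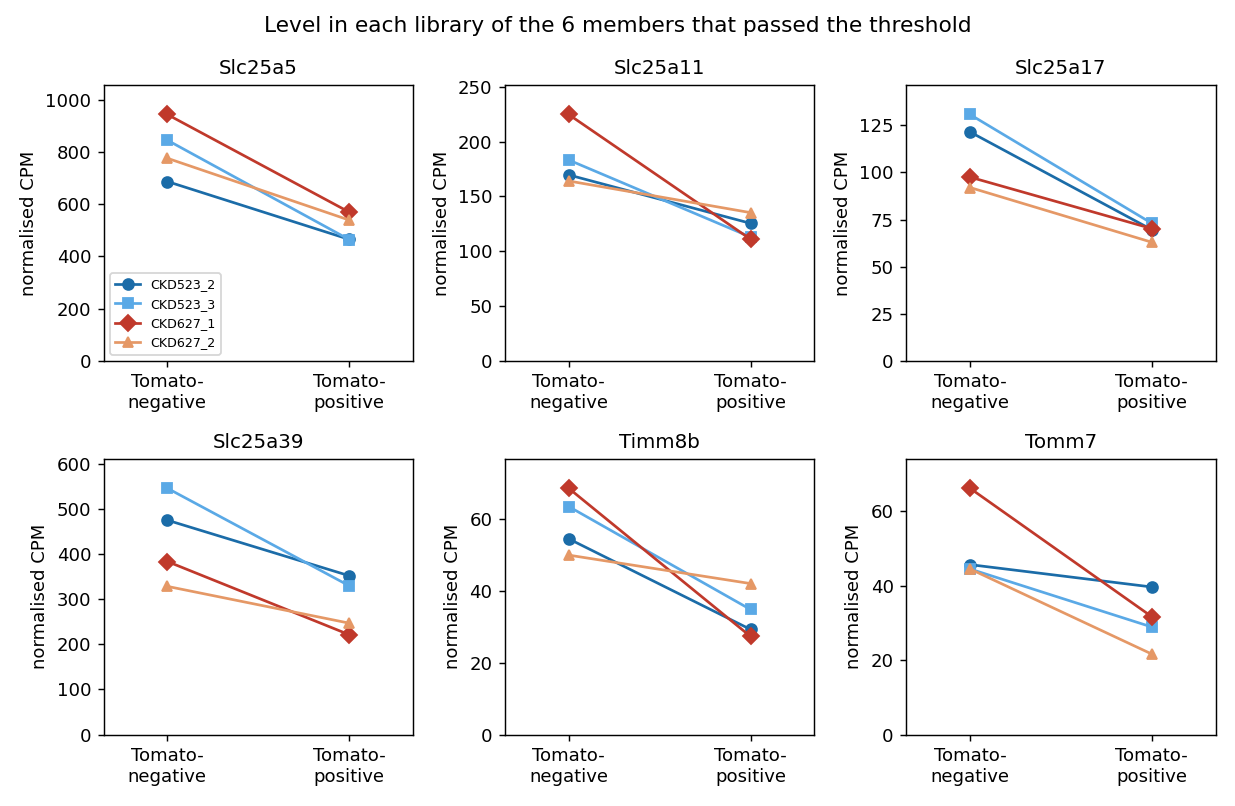
Normalised CPM (vertical axis, from 0) of the 6 members that passed the threshold, in Tomato-negative and Tomato-positive libraries; each line joins the 2 libraries of a pair. Every line falls from left to right, and the groups overlap in Slc25a39, where within each Tomato group the 2 CKD627 libraries lie below the CKD523 ones.

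In edgeR these 6 calls changed with the block or covariate in the fit and with the pairs that were included. Without the block their adjusted p-values in edgeR lay between 0.0647 (Slc25a17) and 0.204 (Slc25a39). Leaving out the pair CKD523_3 left no member called lower, with adjusted p of 0.116 to 0.183 for these 6 genes and 0.709% of all genes called lower. Leaving out CKD523_2 or CKD627_2 left no carrier and 1 import gene each, Tomm7 and Timm8b respectively, beside 1.74% and 1.39% of all genes. Leaving out CKD627_1 gave 5 carriers (Slc25a5, Slc25a12, Slc25a17, Slc25a23 and Slc25a39) and Timm8b, beside 4.65% of all genes. With the prefix as covariate in place of the identifier, 7 carriers and 5 import genes were called lower, beside 5.31% of all genes.

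Among carriers of adenine nucleotides, phosphate and coenzyme A, 2 of 9 fell (Slc25a5 and Slc25a17) and the median log2 difference was -0.46. Slc25a4, the ADP/ATP carrier of heart and muscle, had levels of 448, 502, 607 and 468 normalised CPM in Tomato-negative and 377, 371, 334 and 351 in Tomato-positive libraries. The phosphate carrier Slc25a3, which supplies ATP synthase, ranged from 929 to 1183 and from 688 to 839. Both showed no overlap between groups, with paired log2 differences of -0.49 ± 0.14 and -0.46 ± 0.14, and neither passed the threshold (edgeR adjusted p = 0.0754 and 0.0882). The calcium-regulated ATP and phosphate carriers Slc25a24 and Slc25a25 had estimates above 0, at 0.53 ± 0.24 (edgeR adjusted p = 0.216) and 0.29 ± 0.15 (adjusted p = 0.268).

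Among carriers of carboxylates, 1 of 7 fell (Slc25a11; median -0.25). Slc25a10, which carries succinate and malate, had an estimate of -0.41 ± 0.14 (edgeR adjusted p = 0.108). Among carriers of amino acids and carnitines, 0 of 10 passed (median -0.30). There the aspartate-glutamate carrier Slc25a12 had an estimate of -0.52 ± 0.15 (edgeR adjusted p = 0.0753), and the carnitine carrier Slc25a20, which admits fatty acids for oxidation, -0.51 ± 0.17 (adjusted p = 0.110). Slc25a48 stood at 15.7, 13.1, 4.10 and 10.2 normalised CPM in Tomato-negative and 22.3, 26.3, 28.9 and 12.1 in Tomato-positive libraries. It was higher in 4 of 4 pairs, at 1.10 ± 0.39 (edgeR adjusted p = 0.124).

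Among carriers of nucleotides, cofactors, glutathione and metals, 1 of 10 fell (Slc25a39; median -0.27). The iron carrier Slc25a37 (mitoferrin 1) was the single member whose Tomato-positive libraries all lay above the Tomato-negative ones. Its levels were 28.1, 33.7, 27.3 and 27.4 normalised CPM against 40.8, 45.1, 34.6 and 39.3. The paired log2 difference was 0.45 ± 0.14 and missed the threshold (edgeR adjusted p = 0.0872). The other iron carrier, Slc25a28 (mitoferrin 2), leaned the other way, with levels of 50.3 to 53.7 in Tomato-negative and 36.9 to 48.0 in Tomato-positive libraries and an estimate of -0.29 ± 0.14 (adjusted p = 0.245).

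Among the 6 uncoupler-like and other carriers none passed and the median was 0.22. The estimates farthest above 0 belonged to low counts: Slc25a43 had 0, 5, 25 and 20 counts in Tomato-negative and 4, 14, 46 and 73 in Tomato-positive libraries (1.49 ± 0.74, edgeR adjusted p = 0.248). Slc25a47 had 6, 10, 32 and 36 counts against 28, 44, 34 and 76 (1.20 ± 0.62, adjusted p = 0.268).

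In the import machinery the estimates of all 4 complexes leaned the same way. The 5 small TIM chaperones had a median log2 difference of -0.66 (1 called, Timm8b), the 3 TIM22 genes -0.48 (0 called), the 6 TIM23 genes -0.43 (0 called) and the 9 TOM genes -0.40 (1 called, Tomm7). Of the import genes that missed the threshold, the TOM subunit Tomm5 came nearest. Its levels were 32.8, 33.2, 48.2 and 27.6 normalised CPM in Tomato-negative and 26.7, 17.1, 15.2 and 18.6 in Tomato-positive libraries, a paired log2 difference of -0.87 ± 0.23 (edgeR adjusted p = 0.0553).

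Of the channel and the receptors of the outer membrane none passed the threshold. Tomm40, the channel, ranged from 80.6 to 111 normalised CPM in Tomato-negative and from 63.6 to 84.8 in Tomato-positive libraries (-0.40 ± 0.13, edgeR adjusted p = 0.0968). Tomm22, the central receptor, ranged from 70.6 to 105 and from 47.4 to 64.6 (-0.50 ± 0.18, adjusted p = 0.125). Tomm70a, the receptor that carriers use, ranged from 86.7 to 105 and from 70.2 to 85.2 (-0.34 ± 0.14, adjusted p = 0.171). Tomm20, the receptor for presequences, had 88.2 to 123 and 86.0 to 99.4 (-0.18 ± 0.13, interval -0.48 to 0.12, adjusted p = 0.433). Groups overlapped in Tomm40 and Tomm20, and not in Tomm22 and Tomm70a.

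In the inner membrane, Timm17a of the TIM23 channel ranged from 64.2 to 88.4 normalised CPM in Tomato-negative and from 43.7 to 59.6 in Tomato-positive libraries, with no overlap. Its paired log2 difference was -0.52 ± 0.16 (edgeR adjusted p = 0.0850). The presequence receptor Timm50 had -0.39 ± 0.14 (adjusted p = 0.131) and Timm44, which tethers the import motor, -0.23 ± 0.13 (adjusted p = 0.322). Timm23 itself had -0.44 ± 0.24 (adjusted p = 0.302), and 57.5% of its 50-base stretches occur in other genes, mostly in Gm10273, so that value is uncertain. The same holds for Tomm6 (72.8%), Tomm40l (56.3%, shared with the overlapping Nr1i3), Timm8a1 (41.0%), Slc25a35 (25.1%) and Timm10b (17.7%). Timm10b, a small TIM protein bound to the TIM22 complex, had -0.54 ± 0.17 (adjusted p = 0.0934), and Timm9, which forms a ring with Timm10 that escorts carriers, had -0.63 ± 0.20 (adjusted p = 0.0967).

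Groups without overlap were counted as a measure that uses no model. The Tomato-positive libraries all lay below the Tomato-negative ones in 7 of 42 carriers and 8 of 23 import genes (34.8%), beside 6.48% of all tested genes, and all lay above in 1 carrier and 0 import genes, beside 6.74%. Besides genes already named, the import gene Timm22 of the carrier translocase was among those lower. In 15 carriers (35.7%) and 17 import genes (73.9%) all 4 pairs were lower, beside 17.6% of all genes. All 4 pairs were higher in 5 carriers and 0 import genes, beside 18% of all genes.

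Summed over members, carriers took 0.495% ± 0.0265 of all counts in Tomato-negative and 0.385% ± 0.0085 in Tomato-positive libraries (SD, n = 4 each). Import genes took 0.127% ± 0.0222 and 0.0959% ± 0.00066. Neither class overlapped between groups: carriers had 0.465% to 0.519% against 0.376% to 0.394%, and import genes 0.110% to 0.160% against 0.0950% to 0.0964%. The share of import genes was nearly the same in the 4 Tomato-positive libraries, and among the Tomato-negative ones CKD627_1 was the highest. Such sums mostly follow the genes with the most counts. Among carriers these were Slc25a3, Slc25a5, Slc25a4 and Slc25a39 (117059, 84971, 55475 and 45448 counts over the 8 libraries). The sums were not compared with those of other sets of genes.

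Other nuclear genes for mitochondrial proteins, those of complex I and of the mitochondrial ribosome, were set beside the members. Of 38 complex I subunits 29 fell and 0 rose (median -0.73), and of 78 mitochondrial ribosomal proteins 10 fell and 0 rose (median -0.49). Import genes thus had about the median of the mitochondrial ribosome, and carriers lay between these and all tested genes; the order is a description and was not tested. All 38 complex I and all 78 ribosomal estimates lay below 0, as did all 23 of the import genes.

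**Figure D3:**
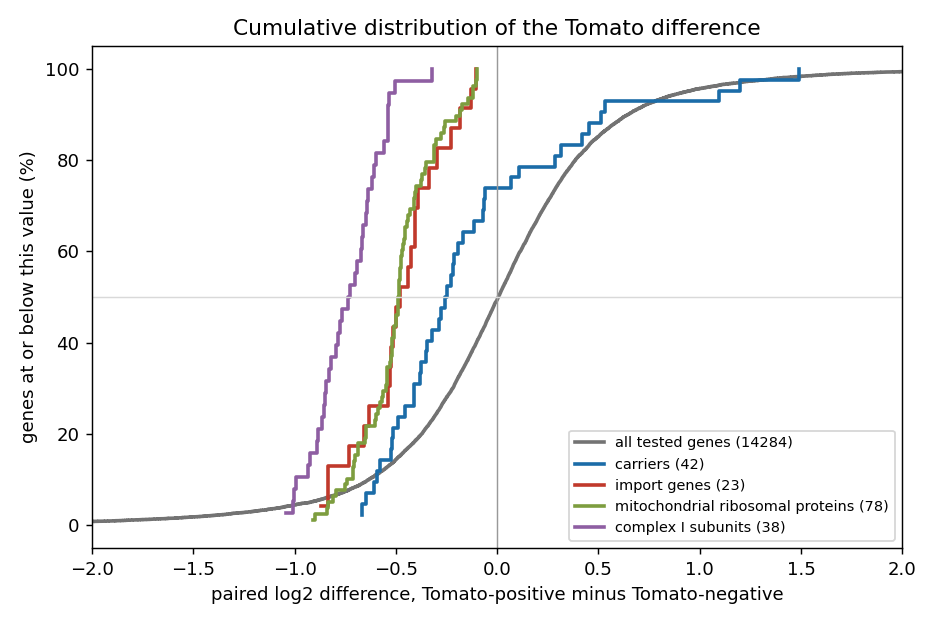
Cumulative share of genes (vertical axis, percent) at or below each paired log2 difference (horizontal axis) for all tested genes, carriers, import genes, mitochondrial ribosomal proteins and complex I subunits. The curves cross 50% at 0.01, -0.25, -0.48, -0.49 and -0.73; the import curve follows that of the mitochondrial ribosome, and the carrier curve runs on to 1.49.

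Other genes of the pathway were taken from 4 lists. Of 11 genes of the import motor and matrix chaperones 3 fell and 0 rose: Hspd1 (HSP60, which folds imported proteins; -0.58 ± 0.14, edgeR adjusted p = 0.0415), Trap1 (-0.53 ± 0.13, adjusted p = 0.0439) and Dnajc15. Of 15 genes of the disulfide relay, sorting and the cristae-shaping MICOS complex 4 fell and 0 rose: Chchd3 (-0.67 ± 0.13, adjusted p = 0.0182; 0.0473 without the block), Apool (-0.69 ± 0.16, adjusted p = 0.0368), Samm50 and Micos13. Of 20 genes of other transport into mitochondria 3 fell and 0 rose: Cpt2, which reforms fatty acyl-CoA behind the carnitine carrier (-1.10 ± 0.16, adjusted p = 0.00718), and the pyruvate carrier subunits Mpc1 (-0.73 ± 0.15, adjusted p = 0.0254) and Mpc2. Of 13 processing peptidases and quality-control proteases of mitochondria 0 passed in edgeR, while 6 were lower and 0 higher at an unadjusted p under 0.05. Dnajc15, Samm50, Micos13 and Mpc2 were named after their values were seen.

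Cpt2 stood at 111, 121, 70.1 and 59.7 normalised CPM in Tomato-negative and 53.6, 45.7, 28.9 and 37.9 in Tomato-positive libraries. Chchd3 stood at 139, 147, 150 and 133 against 82.1, 89.4, 90.3 and 96.0. Neither gene overlapped between groups, and both were lower in 4 of 4 pairs.

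Timm8b and Sdhd, which anchors succinate dehydrogenase in the inner membrane, start 98 bases apart on opposite strands of chromosome 9, with most of the printed stretch between their start sites. Sdhd had levels of 252, 297, 314 and 275 normalised CPM in Tomato-negative and 189, 171, 185 and 186 in Tomato-positive libraries. It fell as Timm8b did (-0.63 ± 0.13, edgeR adjusted p = 0.0251). In all, 17 members had a coding neighbour on the other strand with a start within 1000 bases. Of the 16 neighbour values that were tested 11 had the sign of the member, and 2 of these come from the head-to-head carriers Slc25a29 and Slc25a47, which are each other's neighbour, 163 bases apart. Sdhd was the only neighbour past the threshold, and the next smallest edgeR adjusted p was 0.268 (Slc25a47). Some of the shared signs rest on estimates near 0, such as Cyp39a1 (0.01) and Naif1 (0.03).

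Differences over all tested genes moved with exon length, and so did those of import genes. Across genes, which are not independent replicates, Spearman's rho of the paired log2 difference with exon length was 0.35 over 14040 genes, 0.20 over 42 carriers and 0.55 over 23 import genes. The 7 import genes with less than 1500 bases of exon had a median of -0.73, beside -0.35 for the 1032 tested genes of that length. The other 16 had a median of -0.42, beside 0.03 for 13008 genes. No carrier was shorter than 1500 bases. With a correction for exon length, chosen after seeing the data, the medians were -0.27 for carriers and -0.39 for import genes. Slc25a5 (-0.43, edgeR adjusted p = 0.0784), Slc25a11 (-0.43, 0.0624), Timm8b (-0.42, 0.138) and Tomm7 (-0.41, 0.131) then missed the threshold. Slc25a3, Slc25a12 and Tomm70a passed it instead, and Slc25a17 and Slc25a39 still did. With this correction 4.13% of all genes were called lower and 3.96% higher. What moves with length here (RNA quality, library making or cell type) was not tested.

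**Figure D4:**
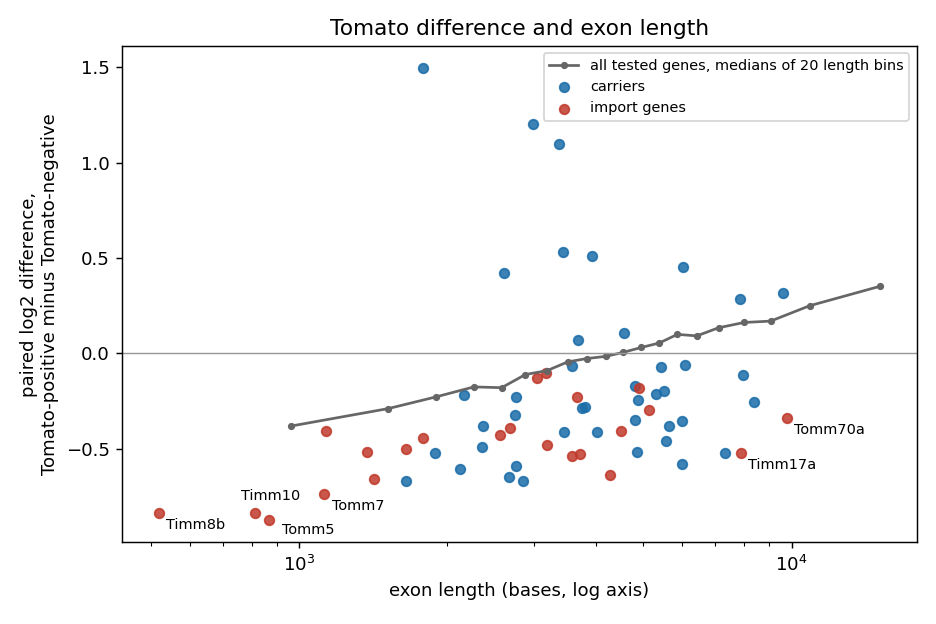
Paired log2 difference (vertical axis) against exon length in bases (horizontal log axis) for carriers and import genes; the grey line joins medians of all tested genes in 20 bins of length, from -0.38 in the shortest to 0.35 in the longest. The short import genes Timm8b, Tomm5, Timm10 and Tomm7 lie at the lower left, and most import genes lie below the line.

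The libraries also fell apart by prefix, and this was compared over all 8 libraries with the Tomato group as a covariate. Of 42 carriers 7 were lower in CKD627 than in CKD523 and 3 were higher; of 23 import genes 0 passed in either direction. Over all tested genes 11.4% were lower and 9.66% higher. At an unadjusted p under 0.05, 1 import gene was lower and 1 higher, 10 carriers were lower and 5 higher, and 16.4% and 15.8% of all genes; DESeq2, which called 13.9% of all genes lower and 12% higher, called Tomm20 lower and no import gene higher. The 8 libraries come from 4 identifiers, 2 per prefix, and this fit takes both libraries of an identifier as independent, so its p-values are too small. With the counts of each identifier summed, a fit of 2 against 2 added after seeing the data, 8 carriers were lower, 3 higher and no import gene passed, beside 13.5% and 9.75% of all genes. Slc25a29 was then not called (edgeR adjusted p = 0.0893), while Slc25a24 was newly called higher (adjusted p = 0.0436) and Slc25a36 newly called lower (adjusted p = 0.0123).

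The ornithine carrier Slc25a15, part of the urea cycle, stood at 113 to 205 normalised CPM in the CKD523 libraries and at 53.9 to 64.8 in the CKD627 ones, with no overlap (log2 difference, CKD627 minus CKD523, -1.41 ± 0.16, edgeR adjusted p = 2.24e-04). Slc25a10 stood at 221 to 345 and 85.6 to 144 (-1.22 ± 0.16, adjusted p = 4.83e-04). Slc25a25 stood at 134 to 203 and 60.5 to 84.9 (-1.23 ± 0.14, adjusted p = 2.60e-04). For each of these 3 carriers every CKD627 library lay below every CKD523 library, in both Tomato groups. The same held for Slc25a21, Slc25a36, Slc25a45 and Slc25a51, and the reverse for Slc25a29, Slc25a43 and Slc25a53. How many of all tested genes were parted in this way was not counted. The list therefore describes these genes and does not set carriers apart from other genes. Besides Slc25a10, Slc25a15 and Slc25a25, the 4 carriers that passed the test as lower were the oxoadipate carrier Slc25a21 (-1.03), Slc25a34 (-1.21), Slc25a39 (-0.53) and the coenzyme A carrier Slc25a42 (-0.74).

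The 3 carriers higher in CKD627 were Slc25a12 (0.50 ± 0.14, edgeR adjusted p = 0.0301), the basic amino acid carrier Slc25a29 (0.78 ± 0.25, adjusted p = 0.0451) and Slc25a43 (2.68 ± 0.73, adjusted p = 0.0234), the last with 0 to 14 counts per CKD523 library. None of the 3 passed when the pair CKD523_2 or the pair CKD627_2 was left out. Slc25a10, Slc25a15 and Slc25a25 passed with each pair left out in turn. Summed proximal tubule markers lay between 11496 and 21014 normalised CPM in CKD523 and between 3659 and 6092 in CKD627 libraries, and 11 of the 12 markers were lower in CKD627. Markers of other cells moved the other way. Higher in CKD627 were 6 of 6 thick ascending limb, 7 of 8 principal cell and 5 of 7 intercalated cell markers. So were 3 of 6 distal tubule, 6 of 7 endothelial, 1 of 5 tested leukocyte and 1 of 5 tested fibroblast markers. Of 5 podocyte markers 0 passed, and none of these lists had a marker called lower. The part of any of these markers in the differences of carriers between prefixes was not tested.

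The Tomato difference was also taken within each prefix. The median of carriers was -0.34 in CKD523 and -0.05 in CKD627, and that of import genes was -0.33 and -0.68, so that the classes were alike in CKD523 and apart in CKD627, which was not tested. By pair, in the order CKD523_2, CKD523_3, CKD627_1 and CKD627_2, carrier medians were -0.25, -0.40, -0.10 and -0.09, and import medians -0.23, -0.41, -0.86 and -0.31. The wide gap in CKD627 thus came mainly from the pair CKD627_1, whose Tomato-negative library had the highest import share. Without that pair the median of import genes was -0.34 and that of carriers -0.26. The median of the 12 proximal tubule markers was -0.90 in CKD523 and 0.16 in CKD627. The part of these markers in the medians by prefix was not tested.

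A test of the difference between prefixes in the Tomato difference (an interaction term) called no member in edgeR, where 0.007% of all genes passed in each direction. At an unadjusted p under 0.05, 1 carrier was lower and 5 higher and 1 import gene was lower, beside 6.09% and 7.07% of all genes. Of the 12 proximal tubule markers, 0 passed this edgeR test, and 11 were higher at an unadjusted p under 0.05. DESeq2 called Slc25a24 and Slc25a13, beside 0.868% of all genes lower and 1.09% higher. Slc25a24 stood at 28.7 and 31.0 normalised CPM in the Tomato-negative and 64.7 and 66.7 in the Tomato-positive libraries of CKD523, and at 68.2 and 66.8 against 59.9 and 70.0 in CKD627. Its Tomato log2 difference was 1.14 in CKD523 and -0.06 in CKD627 (interaction -1.19 ± 0.24, edgeR adjusted p = 0.173; DESeq2 0.00487). The 2 low libraries were the Tomato-negative ones of CKD523.

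Slc25a13, the aspartate-glutamate carrier of liver and kidney also called citrin, leaned the other way. It stood at 95.4 and 101 against 60.8 and 54.6 in CKD523, and at 63.3 and 59.6 against 71.5 and 71.1 in CKD627. Its Tomato difference was -0.77 and 0.21 (interaction 0.98 ± 0.22, edgeR adjusted p = 0.179; DESeq2 0.0130). Slc25a40, the near relative of Slc25a39, had -1.04 and 0.51 (edgeR adjusted p = 0.223) at levels of 5.38 to 15.4 normalised CPM. With the identifier as a block, the edgeR interaction still called no member (adjusted p of 0.103 for Slc25a24 and 0.131 for Slc25a13).

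**Figure D5:**
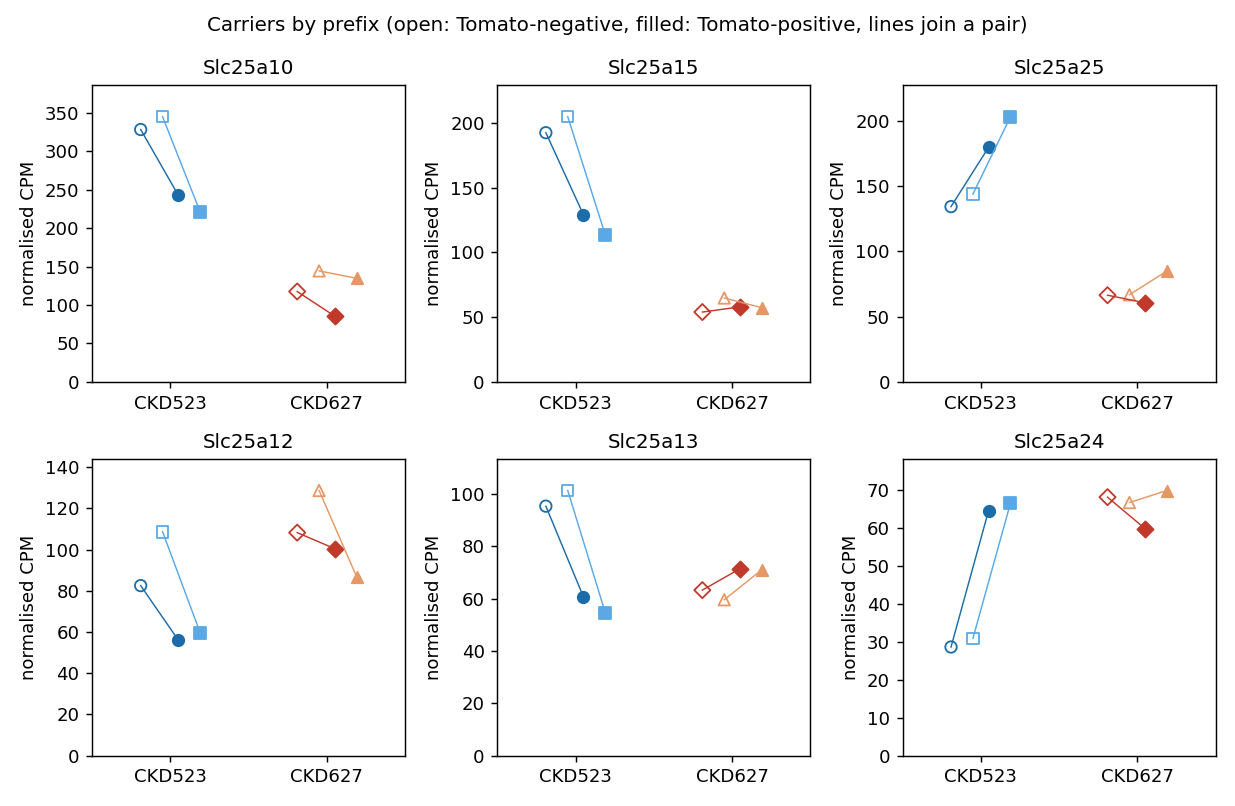
Normalised CPM (vertical axis, from 0) of 6 carriers by prefix; open symbols are Tomato-negative and filled symbols Tomato-positive libraries, with lines joining each pair (circles CKD523_2, squares CKD523_3, diamonds CKD627_1, triangles CKD627_2). Slc25a10, Slc25a15 and Slc25a25 are lower in every CKD627 library, and Slc25a24 is low in the 2 Tomato-negative libraries of CKD523.

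Levels were compared between genes per kilobase of exon, as means over the 8 libraries. After Slc25a5 came Slc25a4 (184 normalised CPM per kilobase), Slc25a3 (165), Slc25a39 (131) and Timm8b (89.4), the highest import gene. The lowest members were Tomm6os (0.262) and the carriers Slc25a53 (0.274), Slc25a47 (0.658) and Slc25a43 (0.740). Tomm6os, which overlaps Tomm6, stood at 0.308 to 1.56 normalised CPM with no difference past the threshold (0.26 ± 0.82, edgeR adjusted p = 0.879).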

How the data were processed

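RNA of 8 libraries of sorted kidney cells was measured, 4 Tomato-negative and 4 Tomato-positive. The authors deposited raw counts per gene symbol, 1 column per library; reads were aligned with subread, per the file headers, and the submitters' processing notes name mm10, edgeR 3.32.1 and limma 3.46.0. The annotation, the strand setting and the treatment of reads with several matches were not given in the sources used here. Total counts of 13474439 to 19886202 mean that 1 CPM stood for 13.5 to 19.9 counts, and low members are limited by counting error. Counts of 2 libraries of a group gave a chi-square of 16.2 to 202 per degree of freedom, more than sampling gives. No 2 of them thus differed by sampling alone, and each library was entered as 1 sample. That does not show that the libraries are independent.

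From these counts, normalised CPM and log2 differences were computed in R 4.3.3 with edgeR 4.0.16: filterByExpr (10 counts in the smaller group's number of libraries, 15 in all), TMM factors, the quasi-likelihood test, 2-sided, Benjamini-Hochberg adjustment over 14284 genes and a threshold of 0.05. Per-pair differences used a prior count of 2. SE is the log2 difference over the root of F.

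The identifier in the titles was the block. Deviations from the group means were correlated across genes for each pair, with r of 0.46, 0.32, 0.33 and 0.47 (the limit for pairing was 0.1). Between different identifiers of a shared prefix r was 0.34, 0.42, 0.30 and 0.47, about as high as within a pair. Further fits tested the prefix and the interaction.

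Members and lists were chosen with earlier results of these data known. Named members were 16 fixed genes, the 6 with the smallest p per class and direction in the paired fit, and the 3 with the smallest p for prefix and interaction; other lists give up to 2 per direction, and further names followed from values already seen. The alternatives tried were no block, the prefix as covariate, each prefix alone, other scalings and filters, DESeq2 1.42.0, limma-voom 3.58.1, robust dispersions, each pair left out, and, added after seeing the data, a correction for exon length and a prefix fit on counts summed per identifier. Annotation came from GENCODE M21 (GRCm38), where all 66 members had a single gene (1 carrier is counted but not reported here by name), and promoters from RefSeq (GRCm38.p6).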

Additional observations from a re-analysis of the deposited data

Results flagged for a closer look

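In 72 groups of 4 libraries (34 named members and the share of counts of each class), 4 held a library far from the other 3 relative to the group's range (Dixon's test at 95%); chance flags about 1 in 20 groups. Tomm7 stood at 66.2 normalised CPM in the Tomato-negative library of CKD627_1, while the other Tomato-negative libraries lay between 44.5 and 45.7. Tomm22, also of the TOM complex, stood at 105 in the same library, beside 70.6 to 75.0 in the others. Timm9, a small TIM chaperone, stood at 22.4 in the Tomato-positive library of CKD523_2, beside 11.6 to 13.3. The iron carrier Slc25a37 stood at 33.7 in the Tomato-negative library of CKD523_3, beside 27.3 to 28.1, and all 4 Tomato-negative libraries still lay below the Tomato-positive ones.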

How the results depend on the processing

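Without the replicate block 0 carriers (4 with it) and 0 import genes (2) were called lower, beside 0.231% of all genes. With no replicate block but the prefix as covariate 7 and 5 were, beside 5.31%. CKD523 alone gave 14 carriers lower, 3 higher (Slc25a24, Slc25a25 and Slc25a48; 0 with all pairs) and 2 import genes lower, beside 8.38% of all genes lower and 7.35% higher, and CKD627 alone gave 0 and 0 lower (1.01% of all genes) and a carrier median of -0.085 (-0.25 with all pairs). DESeq2 gave 8 carriers lower, 1 higher and 6 import genes lower, beside 7.39% of all genes lower and 6.79% higher. Library size only gave 1 import gene lower (3.47% of all genes), and the length correction 1 (4.13%). Leaving out 1 pair gave 0 to 5 carriers and 0 to 1 import genes lower, beside 0.709% to 4.65% of all genes. Between prefixes, leaving out a pair gave 3 to 7 carriers lower (7 in all), beside 6.06% to 9.32% of all genes. It gave 0 to 3 carriers higher (3), beside 4.7% to 7.98%. Library size only gave 6 carriers higher, beside 14.9% of all genes. For import genes (0 lower, 0 higher) DESeq2 gave 1 lower (13.9% of all genes), library size only 1 higher and leaving out a pair 0 to 1 lower. DESeq2 gave 1 carrier lower and 1 higher for the interaction (0 in edgeR, also with the block), beside 0.868% and 1.09% of all genes. Estimates changed sign for Slc25a13 (0.18), Slc25a24 (-0.088) and Slc25a40 (0.48) in CKD627 alone, for Timm17b (0.011) in CKD523 alone and for Slc25a40 without CKD523_2 (0.0086; range -0.57 to 0.0086 with each pair left out), none past the threshold. Of the other comparisons of named members with an alternative, 536 kept direction and side of the threshold, 31 came past it and 37 fell short of it. The median of all genes stayed between -0.07 and 0.04, and all 23 import estimates lay below 0 in every setting but CKD523 alone (22). Apart from the fewer libraries in some fits, the cause of these changes was not tested.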
